A study of Mus musculus with 8 samples.

Results

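CpG methylation was examined in 5 genes of the thyroid hormone response in mouse hepatocytes: *Thra* and *Thrb*, which encode the thyroid hormone receptors alpha and beta, *Dio1*, which encodes the type I deiodinase, *Ncor1*, which encodes a nuclear receptor corepressor, and *Med1*, which encodes the Mediator subunit that contacts nuclear receptors. Each CpG in the body of these genes, or up to 1500 bases before one of their annotated start sites, was taken as a member if it had 5 or more reads in every mouse. This gave 215 of the 897285 CpGs so covered in the genome, with 46 in *Thra*, 63 in *Thrb*, 14 in *Dio1*, 52 in *Ncor1* and 40 in *Med1*. In all, 803 CpGs of the 5 genes had a read in at least 1 mouse. The genes were chosen with the age comparison of these mice known, in which a CpG of *Thrb* was among those with the largest loss, so the differences between the ages in the 5 genes are descriptions. Calls among their CpGs are counted, but no p is given for them and nothing is read from the counts.

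Hepatocytes were enriched by liver perfusion from untreated female C57Bl6/J mice of 40 weeks (mid-aged, n = 4) and 10 weeks (young, n = 4), and each mouse gave 1 library of reduced representation bisulfite sequencing (RRBS). RRBS cuts DNA at CCGG with *Msp*I and reads the fragment ends after bisulfite treatment, so that CpGs far from such sites are not seen. Reads over CpGs numbered 84639955 to 118395064 in a mid-aged library and 46321447 to 72710972 in a young one. Of 9 hepatocyte marker genes, only 2 had tested CpGs within 1500 bases before to 500 bases after a start site, *Hnf4a* with a mean methylation of 12.5% and *Serpina1a* with 61.7%, so the cell type could be checked only in part. The 3 covered markers of leukocytes and Kupffer cells, of 9 listed, lay between 66.2% and 91.4%, with 63.6% to 93.5% in mid-aged and 68.8% to 89.4% in young mice. Covered markers of sinusoidal endothelium (4 of 5) lay between 2.66% and 91.9%, those of stellate cells (5 of 5) between 2.16% and 79.7% and those of cholangiocytes (5 of 5) between 1.61% and 51.4%. Their part in the results below was not tested. A methylation level is a mean over the cells of a library, so a change within hepatocytes and a change in the mixture of cells cannot be told apart.

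Thyroid hormone acts in the liver mainly through the beta receptor, which sits on DNA as a partner of the retinoid X receptors. Without hormone the receptors hold corepressor complexes such as the one built around the protein of *Ncor1*, and with hormone they exchange these for coactivators and Mediator. The type I deiodinase removes iodine from the prohormone thyroxine and so makes the active hormone, and its own gene is a target of the receptors.

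The stretches that the results turn on are printed from the forward strand of mm10, with the tested CpGs in capitals. The first is the stretch of intron 2 of *Thrb* with the largest differences between the ages (chr14:17884939-17885080), the second the stretch of *Thra* with the largest losses (chr11:98767344-98767373), the third a stretch near the start of *Thrb* with little methylation at either age (chr14:17660373-17660402), and the last a sparsely methylated stretch in intron 1 of *Dio1* (chr4:107305887-107305916).
Thrb intron 2: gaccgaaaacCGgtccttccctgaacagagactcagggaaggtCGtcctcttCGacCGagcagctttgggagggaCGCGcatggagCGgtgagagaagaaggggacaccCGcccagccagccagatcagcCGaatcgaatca
Thra intron 9: CGggCGgtgggctgggagagagcagggCGt
Thrb start: gCGcacaaggCGcCGttacCGcagagtCGt
Dio1 intron 1: tggaccCGgtgcataggctggcCGcacaga
The *Thrb* intron stretch holds 11 CpGs in 142 bases, 9 of them tested, and 60.6% of its bases are G or C. The *Thrb* start stretch holds 5 CpGs in 30 bases, all of them tested.

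In 4 of the 5 genes the mean over all tested CpGs differed little between the ages. Across the 215 CpGs, methylation averaged 31.4% ± 0.407 in the mid-aged group and 33.4% ± 0.0957 in the young group (SD, n = 4 each), and 96 CpGs had a lower and 96 a higher mean in mid-aged mice, with a median difference of 0. Over all 897285 CpGs the means were 44.2% ± 0.0245 (SD, n = 4) and 43.9% ± 0.195 (SD, n = 4), with a median difference of 0.212 percentage points. A CpG was called when a quasi-binomial model of its reads gave an adjusted p under 0.05, the group means differed by 5 percentage points or more and the variance within each group was under 0.05. By this rule 6 of the 215 CpGs were called lower in mid-aged mice, 5 in *Thrb* and 1 in *Thra* (2.79%, beside 0.102% of all tested CpGs), and 0 were called higher (beside 0.0615% of all tested CpGs). The groups were apart, with all mid-aged mice lower, at 10 of the 215 CpGs (4.65%, beside 1.24% of all CpGs), and with all mid-aged mice higher at 0 (beside 2.33%). Since *Thrb* was chosen by this contrast, nothing is read from these shares. Without the called CpGs, the other 209 had means of 31.6% ± 0.422 and 32.2% ± 0.17 (SD, n = 4 each).

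**Figure D1:**
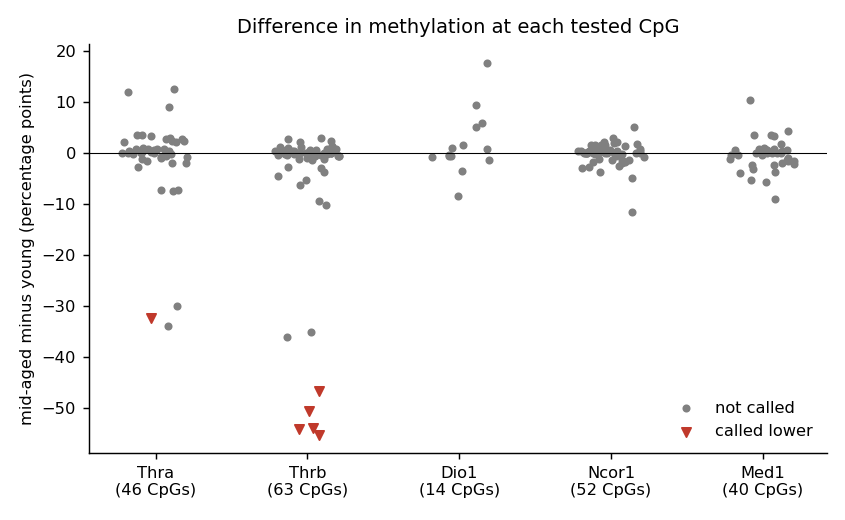
Difference in methylation between mid-aged and young mice (y axis, mid-aged minus young, in percentage points) at each of the 215 tested CpGs (points), by gene (x axis, points spread sideways for sight only). Triangles mark the 6 called CpGs, 5 in Thrb at differences of -46.7 to -55.2 and 1 in Thra at -32.3, while the CpGs of Dio1, Ncor1 and Med1 lie between -11.6 and 17.7.

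*Thrb* (ENSMUSG00000021779.17, chromosome 14, 17660261 to 18038090, plus strand) had the largest difference of the 5 genes in the unweighted mean over CpGs. Weighted by reads, the difference was -8.51 percentage points in *Thrb* and larger in *Thra* (-14.4), *Ncor1* (-9.02) and *Med1* (-8.76). Unweighted, it was -0.207 in *Ncor1* and -0.365 in *Med1*, and the weighted means mix read depth with methylation, as given below for *Thra*. The 63 CpGs of *Thrb* had a mean of 26.7% ± 0.416 in the mid-aged group and 32.5% ± 0.848 in the young group (SD, n = 4 each). The mid-aged mice lay at 26.6%, 27.2%, 26.2% and 26.8%, and the young mice at 32.9%, 32.6%, 33.3% and 31.3%. The groups did not overlap, and most of the gap lay in a single stretch of intron 2. Without the 9 tested CpGs of that stretch, the difference was -0.451 in place of -5.81 percentage points. It was -0.0753 without all CpGs that also lie in the body of another annotated gene, which are those of the stretch and 5 in *Gm48321*.

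The 5 called CpGs of *Thrb* lie within 36 bases, from 17884982 to 17885016, in intron 2 of Thrb-201 and 77805 to 77839 bases before the nearest annotated start site of the gene. Averaged over the 5, the mid-aged mice had 22.8%, 34.6%, 17.8% and 18.6% methylation, and the young mice 80.8%, 79.1%, 78.1% and 64.1%. The group means were 23.5% ± 7.74 and 75.5% ± 7.72 (SD, n = 4 each), a difference of -52.1 percentage points. The lowest young mouse was mouse 4, which still lay far above mid-aged mouse 2, the highest of its group.

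The largest difference was at 17884995, where the mid-aged mice had 18.2%, 30.6%, 20% and 9.76% and the young mice 72.7%, 91.7%, 77.8% and 57.1%. The highest mid-aged value, 30.6%, rested on 36 reads, with a Wilson 95% interval of 18.0 to 46.9, and the lowest young value, 57.1%, on 70 reads with an interval of 45.5 to 68.1. Such intervals hold the error of counting alone, because PCR copies of a fragment could not be told from separate molecules. The intervals of these nearest mice met, while the group means differed by -55.2 percentage points.
The CpG at 17884982 had 29.6%, 50%, 14.3% and 29.4% in mid-aged mice and 100%, 76.5%, 92.3% and 70.8% in young mice. The CpG at 17884991 had 28.1%, 47.2%, 17.6% and 18.4% in mid-aged and 82.6%, 79.2%, 87.5% and 77.4% in young mice. At both, mid-aged mouse 2 was the highest of its group and still lower than all young mice. The CpG at 17885014 had 15.6%, 19.4%, 14.3% and 7.5% in mid-aged and 72.4%, 57.1%, 62.5% and 51.6% in young mice. The CpG at 17885016, the latter of the adjoining pair in the printed stretch, had 22.6%, 25.7%, 22.9% and 27.9% in mid-aged and 76.5%, 90.9%, 70.6% and 63.4% in young mice. The groups did not overlap at any of the 5.

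The other 4 tested CpGs of the stretch bound the difference on both sides. At 17884949, in the *Msp*I site at the left end, methylation was high in both groups, with 85.9% ± 12.9 in mid-aged and 95.4% ± 6.74 in young mice (SD, n = 4 each). At 17885025 the mid-aged mice had 14.3%, 29.7%, 15.6% and 10.8% and the young mice 37.1%, 52.4%, 72.7% and 48.6%. These did not overlap either, but the CpG was not called, and mid-aged mouse 1 had 7 reads there. At 17885048 the values were 12.0% ± 14.7 and 48.1% ± 23.8 (SD, n = 4 each), and the groups overlapped. At 17885069 both groups were low, with 9.32% ± 7.44 and 10.3% ± 7.43. Young mice thus went from high to low methylation over the stretch, and mid-aged mice lay at 50% or less from the second tested CpG on. CpGs within a read are not independent measurements, so the 5 calls are those of 1 place.

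**Figure D2:**
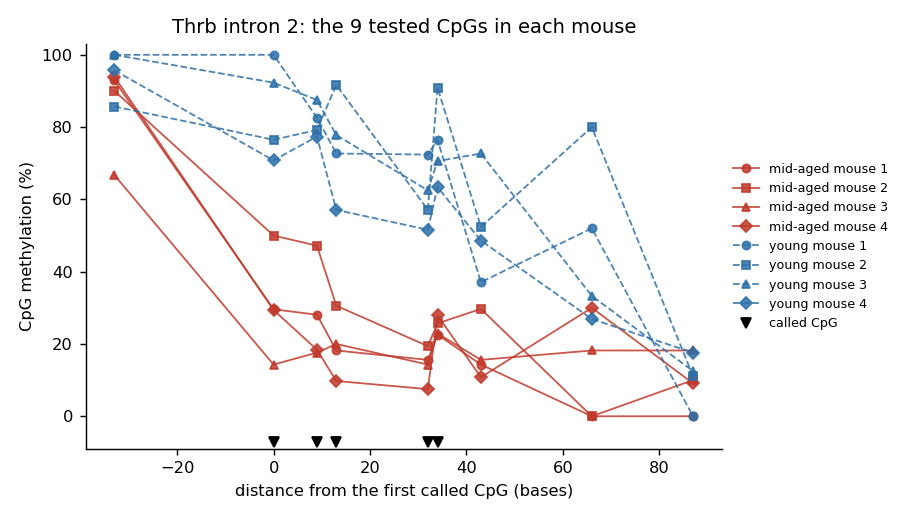
Methylation (y axis, percent) of the 9 tested CpGs of the Thrb intron 2 stretch in each mid-aged mouse (solid red lines) and each young mouse (dashed blue lines) against the distance from the first called CpG (x axis, bases). Black triangles mark the 5 called CpGs, at which the mid-aged mice lie at 7.5% to 50% and the young mice at 51.6% to 100%, and the lines meet at both ends.

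The 9 CpGs lie between the *Msp*I sites at 17884948 and 17885083, the only ones within 1000 bases on either side, so forward reads came from the left and reverse reads from the right end of the fragment. Both strands showed the difference. At 17884995 the forward strand, with 112 mid-aged and 96 young reads, had 21.3% and 83.1% as means over mice, and the reverse strand, with 33 and 49 reads, had 15.7% and 58.1%. At 17885016 the forward strand had 25.0% and 74.3% and the reverse strand 22.6% and 70.1%. The CpGs at 17884949 and 17884982 had forward reads only, and those at 17885048 and 17885069 reverse reads only. Over the 5 called CpGs together, the mid-aged mice had 155 to 196 reads and the young mice 80 to 315, with 13 to 71 reads per CpG and mouse.

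The stretch also lies in *Gm24140* (ENSMUSG00000084722.1, minus strand, 17884808 to 17885133), which the annotation gives as a miscellaneous RNA gene of 326 bases. Its sequence aligned to *Rn7sk*, the gene of the 7SK RNA that holds the transcription elongation factor P-TEFb inactive, with 86.166% identity over 253 alignment columns. There were 92 other matches in the genome at an e-value limit of 1e-10, 59 of them over 200 or more columns, and the highest identity among those 59 was 86.22%. These copies held 27 CpGs with any read and 0 CpGs with 5 reads in every mouse, so whether other copies differ with age could not be measured here.

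Around its first exons *Thrb* had almost no methylation at either age. From 17659306 to 17661077, 39 tested CpGs lay between 0% and 4.45% as means over the 8 mice. The 23 CpGs from 17660361 to 17660659, with a median of 16 CpGs within 100 bases, had 1.21% ± 0.33 in mid-aged and 1.21% ± 0.66 in young mice (SD, n = 4 each). The start stretch printed above belongs to these. Elsewhere in the gene the CpGs were highly methylated. The 4 CpGs of intron 1 from 17792384 to 17792552 had 97.1% ± 2.42 and 99.6% ± 0.716 (SD, n = 4 each). The 4 of intron 6 from 18009582 to 18009763, which also lie in the antisense gene *Gm48321*, had 92.3% ± 1.49 and 97.6% ± 1.28. There the mid-aged mice had 93.3%, 91.6%, 93.8% and 90.6% and the young mice 99.3%, 97.5%, 97.6% and 96.1%, which do not overlap, and none of the 4 was called. The 2 CpGs in coding exon 10, which encodes part of the hormone-binding domain, had 82.7% ± 7.63 and 83.1% ± 9.78. The largest difference upward in *Thrb* was 2.96 percentage points, at the single CpG of intron 1 at 17770451.

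**Figure D3:**
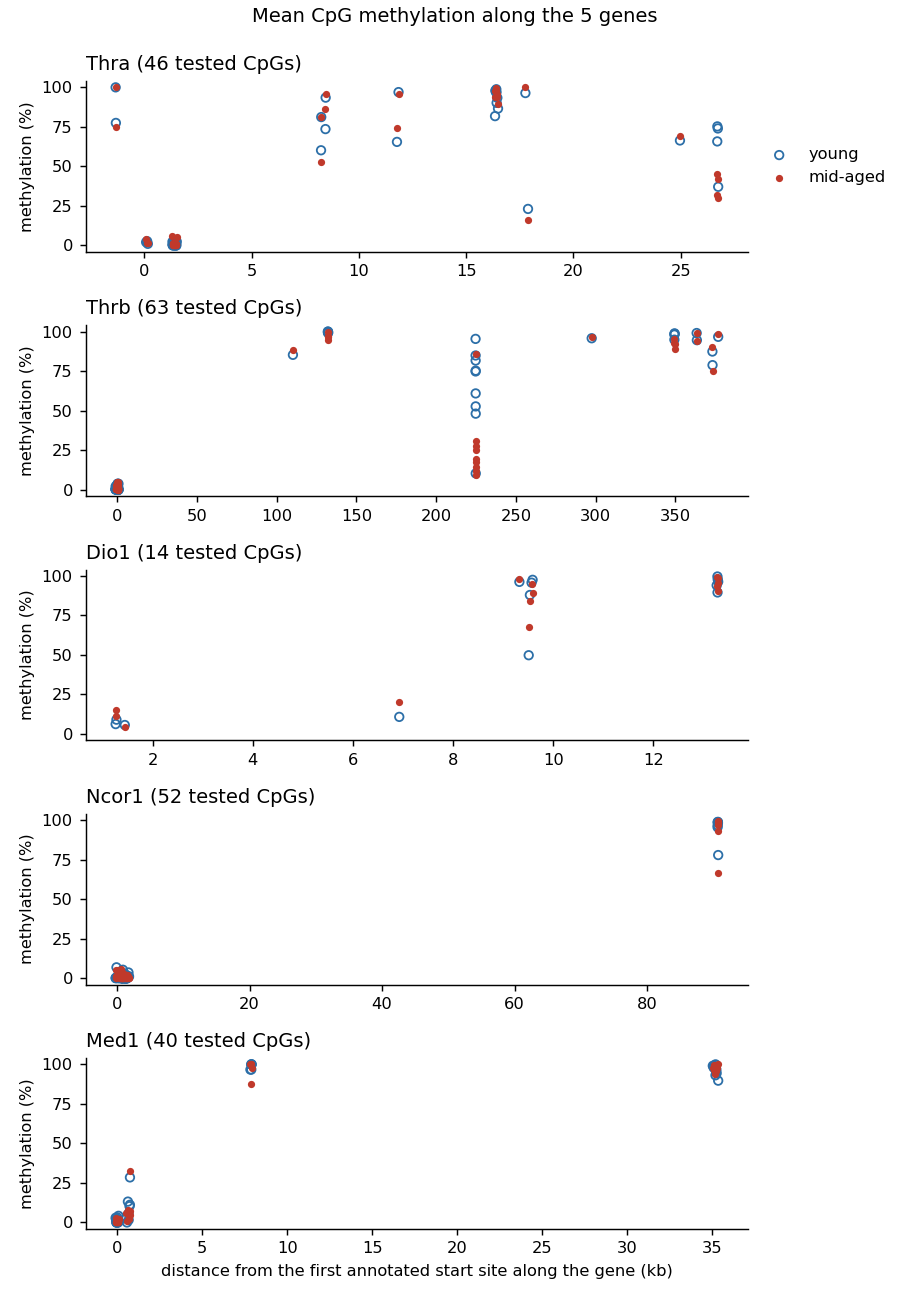
Mean methylation (y axis, percent) of each tested CpG in mid-aged mice (filled red points) and young mice (open blue circles) against the distance from the first annotated start site (x axis, kb, own scale for each gene). In Thra, Thrb, Ncor1 and Med1 most CpGs near the start lie near 0% and those farther along lie high, and the groups part in the stretch of Thrb intron 2 and near the right end of Thra.

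*Thra* (ENSMUSG00000058756.13, chromosome 11, 98740638 to 98769006, plus strand) gives rise to the hormone-binding receptor alpha1 and, through another last exon, to the alpha2 form, which does not bind hormone. Its 46 CpGs had means of 39.4%, 39.2%, 37.3% and 39.6% in mid-aged and 40.6%, 40.6%, 40.3% and 39.6% in young mice, or 38.9% ± 1.09 and 40.3% ± 0.482 (SD, n = 4 each). Mid-aged mouse 4 and young mouse 4 both lay at 39.6%. The difference of -1.38 percentage points became -2.98 when 10 reads were required in every mouse and -14.4 when CpGs were weighted by reads. Weighted in this way, *Thrb* differed by -8.51, *Ncor1* by -9.02 and *Med1* by -8.76 percentage points. The share of a gene's reads that fell on its CpGs under 10% methylation was also higher in mid-aged mice, at 74.6% ± 6.87 against 56.9% ± 20.7 in *Thra* and 92.6% ± 4.05 against 83.2% ± 8.5 in *Ncor1* (SD, n = 4 each), so the weighted means mix read depth with methylation.

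The differences of *Thra* lay at its 3′ end, in intron 9 of Thra-201, just before the last exon of the alpha2 form. The called CpG at 98767371 had 39.1%, 50.6%, 39.4% and 38.0% in mid-aged mice and 88.2%, 71.1%, 68.9% and 68.0% in young mice. The means were 41.8% ± 5.9 and 74.0% ± 9.55 (SD, n = 4 each), and the groups were well apart. At 98767344 the mid-aged mice had 19.0%, 43.3%, 34.2% and 31.0% and the young mice 85.1%, 64.8%, 45.7% and 67.4%, the largest difference of the gene at -33.9 percentage points. At 98767348 they had 30.4%, 50%, 41.4% and 59.3% against 82.6%, 76.6%, 71.7% and 70.4%. Neither of these was called, although no mid-aged mouse overlapped a young one. At the 4th CpG, 98767387, the groups overlapped, with 29.7% ± 6.31 and 37.1% ± 11.2. The forward reads, 475 to 504 a CpG over the 8 mice, start at the *Msp*I site at 98767343, and only 98767344 also had reverse reads (45). Over the 4, mid-aged mice lay at 29.8%, 43.0%, 34.4% and 41.5% and young mice at 73.5%, 66.2%, 53.0% and 59.6%.

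The call in *Thra* was lost when any 1 of the 4 mid-aged mice was left out, with 0 called CpGs in each case, and without young mouse 3 there were 2. Over the genome, calls lower fell from 914 to between 335 and 492 without 1 mid-aged mouse, and to 748 without young mouse 3. With 10 reads required in every mouse, 2 CpGs of *Thra* were called lower, beside 946 over the genome. In *Thrb*, 3 of the 5 calls remained without mid-aged mouse 1, 3 or 4, always those at 17884991, 17885014 and 17885016, and the 5 differences lay between -42.9 and -61.1 percentage points over all 8 omissions of a mouse. With limma on M values, 1 CpG of *Thrb* (17885014) and 0 of *Thra* were called lower, beside 0.0727% of all CpGs. By that test 10 of 63 CpGs of *Thrb* and 3 of 46 of *Thra* had an unadjusted p under 0.05 and a lower mean (beside 2.76% of all CpGs), and 0 and 1 a higher mean (beside 5.57%). Since the genes were chosen with this contrast known, nothing is read from these counts either.

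In the rest of *Thra*, the 20 CpGs from 98741946 to 98742142 at exon 1 of Thra-201 lay between 0% and 4.03%, with 1.01% ± 0.33 in mid-aged and 0.856% ± 0.773 in young mice (SD, n = 4 each). The 8 CpGs in and after coding exon 4 (98756984 to 98757123), had 95.9% ± 1.17 and 92.8% ± 2.05. Within intron 4, the CpG at 98758521 stood out as low, with 7.41%, 16.7%, 16.0% and 23.1% in mid-aged and 0%, 35.0%, 33.3% and 24.0% in young mice, while its neighbour at 98758399 had means of 100% and 96.4%. The largest difference upward was 12.5 percentage points, at 98749078 in intron 1, where the groups overlapped (86.1% ± 10.5 and 73.6% ± 12.8, SD, n = 4 each).

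**Figure D4:**
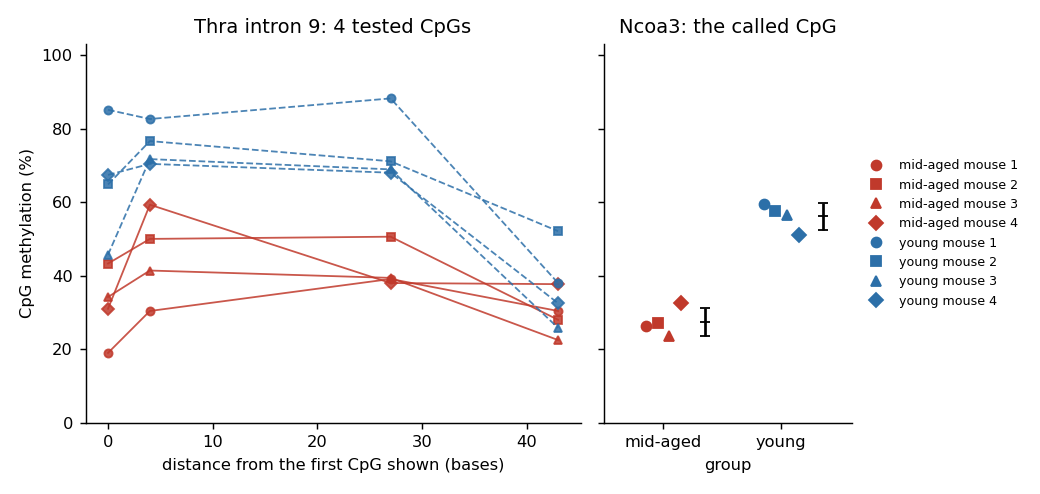
Methylation (y axis, percent) in each mid-aged mouse (red) and each young mouse (blue) of the 4 tested CpGs in intron 9 of Thra (left, against the distance from the first CpG shown, in bases) and of the called CpG upstream of Ncoa3 (right, by age, black bars giving the mean ± SD). The groups are apart at the first 3 CpGs of Thra and overlap at the last, and at Ncoa3 the mid-aged mice lie at 23.7% to 32.7% and the young mice at 51.0% to 59.6%.

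*Dio1* (ENSMUSG00000034785.14, chromosome 4, 107291465 to 107307169, minus strand) had no called CpG among 14, beside 0.163% called of all tested CpGs. With so few CpGs, nothing is read from this. None of the 14 lay in a start window. Over the 14, the mid-aged mean was 68.7% ± 3.27 and the young mean 66.9% ± 2.71 (SD, n = 4 each), with mid-aged mice at 65.3%, 67.1%, 69.6% and 72.9% and young mice at 63.8%, 69.4%, 65.4% and 68.9%. The groups overlapped. The gene had a low part and a high part. The 3 CpGs of intron 1 from 107305726 to 107305909, 1260 to 1443 bases after the first start, had 10.2% ± 4.19 and 6.98% ± 4.27, and the single CpG at 107300245 had 20.2% ± 10.3 and 10.8% ± 8.38. At 107305893, in the stretch printed above, the mid-aged mice had 16.3%, 10.7%, 12.7% and 19.8% and the young mice 6.49%, 9.21%, 5.97% and 14.5%, so young mouse 4 lay among the mid-aged mice. The CpG of intron 1 at 107297846 was highly methylated, with means of 97.8% and 96.2%. So were the CpGs from exon 2 on, with 95.5% ± 1.52 and 95.5% ± 4.15 over the 5 CpGs of coding exon 3. The exception was 107297660 in coding exon 2, with 43.8%, 79.2%, 67.1% and 80% in mid-aged and 41.9%, 56.7%, 52.8% and 48.1% in young mice. This was the largest difference of the gene, at 17.7 percentage points, and mid-aged mouse 1 lay within the young range. The largest difference downward, -8.52 at 107297582, came from mid-aged mouse 1 at 62.5%, while its group's others lay between 96.0% and 100%.

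*Ncor1* (ENSMUSG00000018501.17, chromosome 11, 62316426 to 62458541, minus strand) was close to unmethylated at 46 of its 52 CpGs, which had means under 10%. Its means were 11.9%, 11.3%, 11.6% and 11.1% in mid-aged and 11.6%, 11.6%, 11.5% and 12.0% in young mice, 11.5% ± 0.336 against 11.7% ± 0.227 (SD, n = 4 each). The 16 CpGs at and after exon 1 of Ncor1-201 (62457008 to 62457299) had 0.629% ± 0.341 and 0.368% ± 0.736. The 5 farthest upstream (62458608 to 62458735) also lie in *Pigl*, a gene of glycosylphosphatidylinositol anchor synthesis, and had 1.65% ± 0.479 and 1.52% ± 0.335. The only methylated CpGs covered were 6 in intron 21 (62367850 to 62367938), with 92.1% ± 1.67 and 94.3% ± 1.52. Among them, 62367850 had the largest difference of the gene at -11.6 percentage points, with 76.5%, 58.8%, 73.7% and 56.4% in mid-aged and 66.0%, 90.6%, 71.9% and 83.1% in young mice. The groups overlapped there. The largest difference upward was 5.1 percentage points, at 62458382, where all young mice had 0%. The mid-aged mice had 10.0%, 6.25%, 4.17% and 0% there, on 13 to 24 reads, so the groups overlapped.

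*Med1* (ENSMUSG00000018160.15, chromosome 11, 98152154 to 98193293, minus strand) had the sharpest contrast along the gene. Its means were 43.3%, 43.5%, 42.6% and 43.6% in mid-aged and 43.7%, 42.8%, 43.4% and 44.5% in young mice, 43.2% ± 0.468 against 43.6% ± 0.717 (SD, n = 4 each). The 15 CpGs at exon 1 and just upstream (98193228 to 98193397) had 0.52% ± 0.149 and 1.15% ± 0.303. In intron 1 the level reached 30.6% as the mean over the 8 mice at 98192555. The 12 CpGs of coding exon 17 had 97.6% ± 0.86 and 96.7% ± 1.06. In that exon, 98158103 was the only CpG of 40 in *Med1* at which the groups were apart. The mid-aged mice lay at 98.1%, 96.1%, 97.5% and 92.8% and each young mouse at 100%, a difference of -3.9 percentage points. All mid-aged mice lay below all young mice at 1.24% of all tested CpGs and above them at 2.33%. Nothing is read from this 1 CpG. The largest differences were 10.3 percentage points at 98157949, also in exon 17, and -9.0 at 98185417, in intron 2 within the annotated gene *Gm11604*. At both, mice of the 2 groups overlapped. In *Dio1*, *Ncor1* and *Med1* together, 4 of 106 CpGs had an unadjusted p under 0.05 in the quasi-binomial test and a lower mean, and 3 a higher mean, beside 3.93% and 5.16% of all tested CpGs. With limma these were 1 and 4, beside 2.76% and 5.57% of all tested CpGs. By limma 0 were called, beside 0.0727% called lower and 0.0963% called higher of all tested CpGs.

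Near annotated start sites, from 1500 bases before to 500 bases after, CpGs were less methylated than in the rest of the gene in all 4 genes with CpGs in both classes. This comparison is within each mouse and does not use the ages. In *Thrb* the 39 start CpGs had 1.0% ± 0.386 and the other 24 had 76.1% ± 8.42 (SD over 8 mice), a difference of -75.1 ± 8.51 percentage points. The other 24 include those of the intron 2 stretch. They had 68.4% ± 0.881 in mid-aged and 83.8% ± 2.66 in young mice, so these SDs over 8 mice hold mostly the gap between the ages. In *Med1* the 23 start CpGs had 3.53% ± 0.764 and the other 17 had 97.4% ± 1.03, a difference of -93.8 ± 1.34. The differences were -62.9 ± 3.29 in *Thra* (27 and 19 CpGs) and -61.7 ± 1.72 in *Ncor1* (43 and 9 CpGs). Start CpGs lay lower in 8 of 8 mice in each gene. A two-sided exact sign-flip permutation test over 8 mice gave p = 0.00781 in each gene, the smallest it can give. In the same exact sign-flip permutation test, adjusted p = 0.00781 over the 4 genes. The flips are over mice with the CpGs held fixed, so this test measures only agreement between mice. It cannot decide whether position along a gene sets the level, and nothing is concluded from its p values. With the window around the most upstream start site only, the difference was -3.43 percentage points in *Thra* and -12.1 in *Ncor1*, with adjusted p = 0.0312 and 0.0104 in the exact permutation test, since most unmethylated CpGs of these genes lie at later start sites.

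The level followed the density of CpGs in part. Of the 215 CpGs, 128 had 10 or more CpGs within 100 bases, with a median methylation of 0.82%, and 30 had at most 4, with a median of 94.0%. There were exceptions in both directions. Dense CpGs with high levels included those of *Dio1*, where 4 had 90.0% to 99.4%, and of the called *Thrb* stretch in young mice, whose CpGs have 12 or 13 CpGs within 100 bases. Sparse CpGs with low levels included those of intron 1 of *Dio1* at 107300245 and from 107305726 to 107305909, with 4.97% to 15.5%. The sparse CpG of the same intron at 107297846 was high, at 97.0%. In the RefSeq promoter windows of GRCm38.p6, which run from 250 bases before to 50 bases after a start, the first *Thrb* window (17660710 to 17661009) holds 37 CpGs, more than 94.4% of the 32851 windows, and the *Dio1* window holds 3, more than 23.3%. The hexamer AGGTCA, to which thyroid hormone receptors bind in pairs, was searched on both strands. It occurs in that *Thrb* window and in none of the other 5 windows of *Thrb*, *Dio1*, *Ncor1* and *Med1*, a share close to the 16.3% of all windows. *Thra* had no window among these.

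The edge of the read filter was as follows. The CpGs just inside, with 5 reads in the shallowest mouse, numbered 3 in *Thrb*, 1 in *Thra*, 1 in *Dio1* and 3 in *Med1*, and included 17885048 of the *Thrb* stretch (12.0% and 48.1%). The CpGs just outside, with 4 reads, were 4 in *Thrb*, all near its start and with means between 0% and 6.25%, 1 in *Med1* at 0% in both groups, and 1 in *Thra* at 98750856, with 32.6% in mid-aged and 8.58% in young mice.

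Beyond the 5 genes, a list of 45 other genes of thyroid hormone action held 1996 tested CpGs in 38 genes. Of these, 1 was called lower in mid-aged mice (0.0501%, beside 0.102% of all CpGs) and 0 were called higher (beside 0.0615%). Their median difference was 0.204 percentage points, beside 0.212 over all CpGs. In the quasi-binomial test, 71 had an unadjusted p under 0.05 and a lower mean (3.56%, beside 3.93% of all CpGs) and 71 a higher mean (3.56%, beside 5.16%). With limma 1 CpG was called lower and 1 higher, the latter in *Ncoa2* (beside 0.0727% and 0.0963% of all CpGs). Without young mouse 1 the quasi-binomial test called 2 CpGs of *Cdk8* higher, while the calls over all CpGs went from 552 to 996 higher and from 914 to 1409 lower.

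*Ncoa3*, which encodes a coactivator of the p160 family, had 1 called CpG, 846 bases before its nearest start site (chromosome 2, 165991790). The mid-aged mice had 26.2%, 27.0%, 23.7% and 32.7% and the young mice 59.6%, 57.5%, 56.4% and 51.0%, on 84 or more reads in every mouse. The means were 27.4% ± 3.79 and 56.1% ± 3.64 (SD, n = 4 each; quasi-binomial test, adjusted p = 2.32e-05), and the groups were well apart. The call in *Ncoa3* held with limma and without any 1 mouse. It was lost when same-numbered mice of the 2 groups were treated as blocks, which left 0 calls over the genome.

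Of all tested CpGs, 0.163% were called, a share at which small sets of CpGs often hold no call. Nothing is therefore read from the lack of calls in the gene sets below. The other genes of the list had no call by the quasi-binomial test with all 8 mice. They include the retinoid X receptors (252 tested CpGs in 3 genes), the other deiodinases (86 CpGs, all in *Dio3*, whose enzyme inactivates the hormone), the hormone transporters (156 in 4 of 5 genes), the plasma carriers (3 in 1 of 3), the listed genes of corepressor complexes (215 in 5 genes), the enzymes of hormone conjugation (3 in 1 of 3) and the liver targets of the hormone (468 in 9 of 10). Among the targets, *Klf9*, which encodes a transcription factor induced by the hormone, had 127 tested CpGs with a median difference of 0.182 percentage points, and *Thrsp*, which encodes the Spot 14 protein of lipid synthesis, had no tested CpG.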

How the data were processed

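RRBS libraries of hepatocytes from 4 mid-aged and 4 young mice were analyzed. The values deposited by the authors are not normalized and give, per CpG strand (mm10), a methylated percent and a read count. Trim Galore 0.4.2, BWA 0.6.2, Picard 1.115, SAMtools 1.3 and FastQC are named in the submitters' processing notes, with a methylation caller not given in the sources used here. Percent times coverage gave whole methylated reads, strands were summed, and CpGs with 5 or more reads in every mouse were kept.

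Ages were compared by a quasi-binomial model with a dispersion moderated by limma 3.58.1 (R 4.3.3) and kept at 1 or more. Benjamini-Hochberg adjustment was over all 897285 CpGs. The model was also run on simulated counts without variation between mice, so that run cannot show how it handles such variation. The study's methods name limma as run in RnBeads. Here limma on M values was an alternative, beside 10 reads, a replicate block and leaving out mice. Start windows were compared by an exact sign-flip permutation test. Genes follow GENCODE vM21, with exons numbered along Thra-201, Thrb-201, Dio1-201, Ncor1-201 and Med1-203. Sequences and copies come from RefSeq GRCm38.p6 (pysam 0.24.0, BLAST 2.17.0), and figures from matplotlib 3.10.9 under Python 3.11.15.

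Named were the 5 genes with every called CpG, up to 12 a gene, the CpG with the largest difference in each direction, the tested CpGs within 500 bases of a run of 3 or more called CpGs at most 200 bases apart, and, of the list, the genes with a call. *Klf9*, *Dio3*, *Thrsp*, *Ncoa2*, *Cdk8* and other CpGs given were chosen after their values were seen. The genes and lists were chosen with earlier results of these data known. No library was a copy of another (at most 0.416% of CpGs with 20 or more reads shared both counts). Of the list as first drawn up, 1 gene is not reported here, so the list counts hold only for the 45 others.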

Additional observations from a re-analysis of the deposited data

Results flagged for a closer look

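Of 42 groups of 4 mice examined (gene means, called CpGs, the CpGs with the largest differences and the *Thrb* stretch), 5 had a mouse far from the others by Dixon's ratio. Chance flags about 1 of 20 independent groups of normally distributed values. These groups share mice and CpGs, and some hold few reads or several values at 100%, so the 5 cannot be set against that rate. Young mouse 4 lay at 64.1% over the 5 called CpGs of *Thrb*, with the others at 78.1% to 80.8%. At the called CpG of *Thra*, 98767371, mid-aged mouse 2 lay at 50.6% beside 38.0% to 39.4%, and young mouse 1 at 88.2% beside 68.0% to 71.1%. At 107297582 of *Dio1*, mid-aged mouse 1 lay at 62.5% beside 96.0% to 100%. At 98185417 of *Med1*, young mouse 2 lay at 86.7%, with 100% in the others.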

How the results depend on the processing

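In the 4 genes compared (not *Dio1*), start sites lay below the rest of the gene in all 44 values from alternatives. All passed the threshold of the sign-flip permutation test, which measures only agreement between mice. Called CpGs depended on the test. With limma on M values, 1 CpG of *Thrb*, 0 of *Thra* and, in the list of 45 genes, 1 lower and 1 higher were called, and over the genome 652 lower and 864 higher in place of 914 and 552. With 10 reads, *Thra* had 2 calls, and over the genome 946 CpGs were called lower and 570 higher. Leaving out 1 mouse gave 3 to 5 calls in *Thrb*, 0 to 2 in *Thra* and, in the list, 1 lower in each case and 0 to 2 higher, while over the genome 335 (without mid-aged mouse 2) to 1409 (without young mouse 1) were called lower and 277 to 996 higher (the same mice). The replicate block of same-numbered mice left 0 calls in *Thrb*, 0 in *Thra*, 0 in the list and 0 over the genome (in the quasi-binomial test, 7, 3 and 40 of the first 3 had an unadjusted p under 0.05 and a lower mean, or 11.1%, 6.52% and 2.0%, beside 2.15% over the genome, and 0, 0 and 29 a higher mean, beside 2.72%). As the genes were chosen with the age comparison known, nothing is read from the shares in *Thrb* and *Thra*. The labels give no shared origin for equal numbers. Deviations of same-numbered mice correlated at -0.00252 to 0.00805, and those of other pairs at -0.00913 to 0.0101. Such values cannot tell whether same-numbered mice shared a day or a batch.

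The mean difference between the ages moved with weighting by reads, to -14.4 percentage points in *Thra*, -8.51 in *Thrb*, -9.02 in *Ncor1* and -8.76 in *Med1*. It moved to -2.98 in *Thra* with 10 reads to -0.0753 in *Thrb* without CpGs in another gene and to -0.451 without the intron 2 stretch, an alternative chosen after seeing the data. In mid-aged mice a larger share of reads fell on CpGs with little methylation, which moves the weighted means by construction. The precision is limited by depth, since young libraries had fewer reads, and by RRBS, which covered 215 of the 803 CpGs seen in the 5 genes deeply enough in every mouse.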
